A study of Mus musculus with 12 samples.

Results

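Subcutaneous and visceral white fat of mice on a high-fat diet were compared by RNA sequencing. Inguinal fat (IWAT), the main subcutaneous depot of the mouse, was set against the mean of 2 visceral depots. The visceral depots were epididymal fat (EWAT), which lies beside the testis, and retroperitoneal fat (RWAT), which lies on the back wall of the abdomen. Of the 12 libraries of the series, 9 entered: IWAT 1 to 3, EWAT 1 to 3 and RWAT 1 to 3, each chosen by its title, with the means of EWAT and RWAT given equal weight. The other 3 libraries, of brown fat, entered the filter on low counts, the scaling and the estimate of the spread, but no difference given here. All mice were male wild-type C57BL/6J, given in the design text as 6 to 10 weeks of age, on a high-fat diet, and the fat of every group had been denervated by surgery. No intact fat and no fat of mice on another diet was set beside it, so the values describe denervated fat of mice on this diet alone. The labels do not say whether the 3 libraries of a depot came from separate mice, and the p-values then speak only of how far these libraries scatter, which may be technical.

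White fat stores triglyceride in adipocytes and also holds progenitor cells, macrophages, vessels and nerve fibres. Inguinal fat lies under the skin, while epididymal and retroperitoneal fat lie inside the abdomen, where a sheet of mesothelial cells covers epididymal fat. The depots arise from different embryonic precursors and keep distinct sets of developmental transcription factors in the adult. In obesity, visceral fat is known for collecting macrophages around dying adipocytes.

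Levels are given as CPM, reads scaled to a common library total, after scaling of the libraries by the TMM method of edgeR. A gene was called where its edgeR quasi-likelihood p, adjusted over all 18942 genes tested, was below 0.05. Fold changes are IWAT minus the visceral mean on the log2 scale, so a positive value means higher in IWAT. Total expected counts ran from 17064476 to 20457136 in IWAT, from 18930927 to 21106554 in EWAT and from 12933516 in RWAT 3 to 20798169 in RWAT 1, and 3 counts, the level below which a gene was read as not detectable, stood for 0.142 to 0.232 CPM in a white library.

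The cell makeup of the libraries differed as well. The 20 genes of mature adipocytes, such as Adipoq and Plin1, had a mean log2 CPM of 10.28, 9.47 and 9.62 in IWAT, against 5.22, 8.36 and 7.81 in EWAT and 8.58, 7.01 and 8.38 in RWAT. Every IWAT library was above every visceral library, and EWAT 1 and RWAT 2 were lowest. Macrophage genes summed to 4287 to 6711 CPM in IWAT, against 16655 to 21875 CPM in EWAT and 9371 to 13449 CPM in RWAT. Such a sum rests mostly on the most abundant genes. As mean log2 CPM the macrophage genes had 5.8, 6.49 and 7.32 in IWAT, against 8.06, 8.05 and 8.62 in EWAT. In RWAT they had 8.16, 8.15 and 7.45, so IWAT 3 stood just below RWAT 3. Skeletal muscle genes were high in RWAT 1 and RWAT 3 alone, with a mean log2 CPM of 0.2, -0.32 and 0 in IWAT, against -0.89, -0.25 and -0.31 in EWAT and 5.08, 0.47 and 7.77 in RWAT. In bulk tissue, fewer cells of a type and less RNA per cell cannot be told apart. The adipocyte level was also fitted as a covariate, and the part of the macrophage, mesothelial and muscle levels in the results was not tested.

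**Figure D1:**
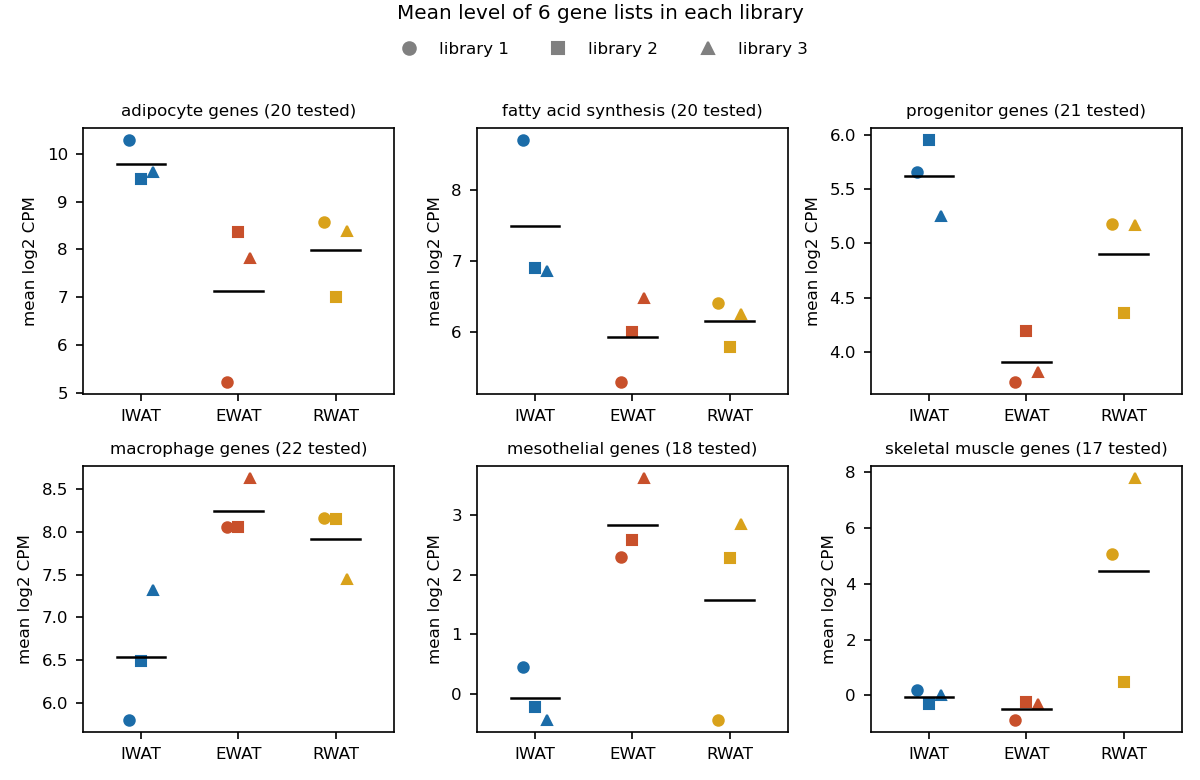
Mean log2 CPM of 6 gene lists in each of the 9 libraries (vertical axis), with IWAT, EWAT and RWAT from left to right. Symbols mark libraries 1 to 3 and black lines the depot means. The adipocyte level of every IWAT library was above all 6 visceral libraries, EWAT 1 had the lowest at 5.22, and skeletal muscle genes were high in RWAT 1 and RWAT 3.

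Inguinal fat differed from the visceral mean in 2102 genes, 11.1% of those tested, of which 1224 (6.46%) were higher in IWAT and 878 (4.64%) were lower. At an unadjusted edgeR p below 0.05 there were 5830 (30.8%). Genes of fat synthesis and release, of adipocyte progenitors and of limb and trunk patterning were among those higher. Genes of macrophages, of chemokines and of mesothelium were among those lower. Counts of called list members below are to be set against the 6.46% higher and 4.64% lower over all genes tested. All 3 IWAT libraries lay above all 6 visceral ones in 2123 genes (11.2%) and below them in 1484 (7.83%), and 1036 (5.47%) and 745 (3.93%) of these were called. A stricter set parted IWAT from both depots at once: called, with no overlap between the 3 IWAT and the 6 visceral libraries, and at least 1 log2 unit from each visceral depot. It held 1074 genes (5.67%), 601 of them higher in IWAT (3.17%) and 473 lower (2.5%).

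The median log2 fold change of the genes called higher was 1.54 against EWAT and 1.12 against RWAT, and that of the genes called lower was -1.51 against EWAT and -1.18 against RWAT. The mean of RWAT lay between those of IWAT and EWAT for 1066 of the 1224 genes called higher and for 769 of the 878 called lower. These genes were called for IWAT lying apart from the visceral mean, and the share over all genes tested was not taken. Whether this order is particular to the called genes was therefore not tested. Taken alone, IWAT against EWAT gave 1710 calls (9.03%), 839 higher (4.43%) and 871 lower (4.6%), with 29.7% of genes at an unadjusted edgeR p below 0.05. IWAT against RWAT gave 0 calls, with 3745 genes (19.8%) at an unadjusted edgeR p below 0.05. The smallest adjusted edgeR p against RWAT was 0.0804, while DESeq2 called 1160 genes and limma-voom 0 in that comparison. RWAT against EWAT, the test of whether the 2 steps differed, gave 1 call by edgeR, Tbx15, higher in RWAT (0.00528% of genes). It gave 857 genes (4.52%) at an unadjusted edgeR p below 0.05, 130 calls by DESeq2 and 0 by limma-voom.

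The number of calls against the visceral mean hung on single libraries. Without IWAT 1, edgeR called 0 genes, with 4347 at an unadjusted p below 0.05, and without IWAT 2 it called 2 genes, Tbx15 and Zfhx4. It called 971 genes without EWAT 1, 443 without EWAT 3, 693 without RWAT 1 and 243 without RWAT 2. With the adipocyte level of each library as a covariate it called 0 genes, with 2473 at an unadjusted p below 0.05. Since every IWAT library was above every visceral one in that level, depot and adipocyte content cannot be told apart here.

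**Figure D2:**
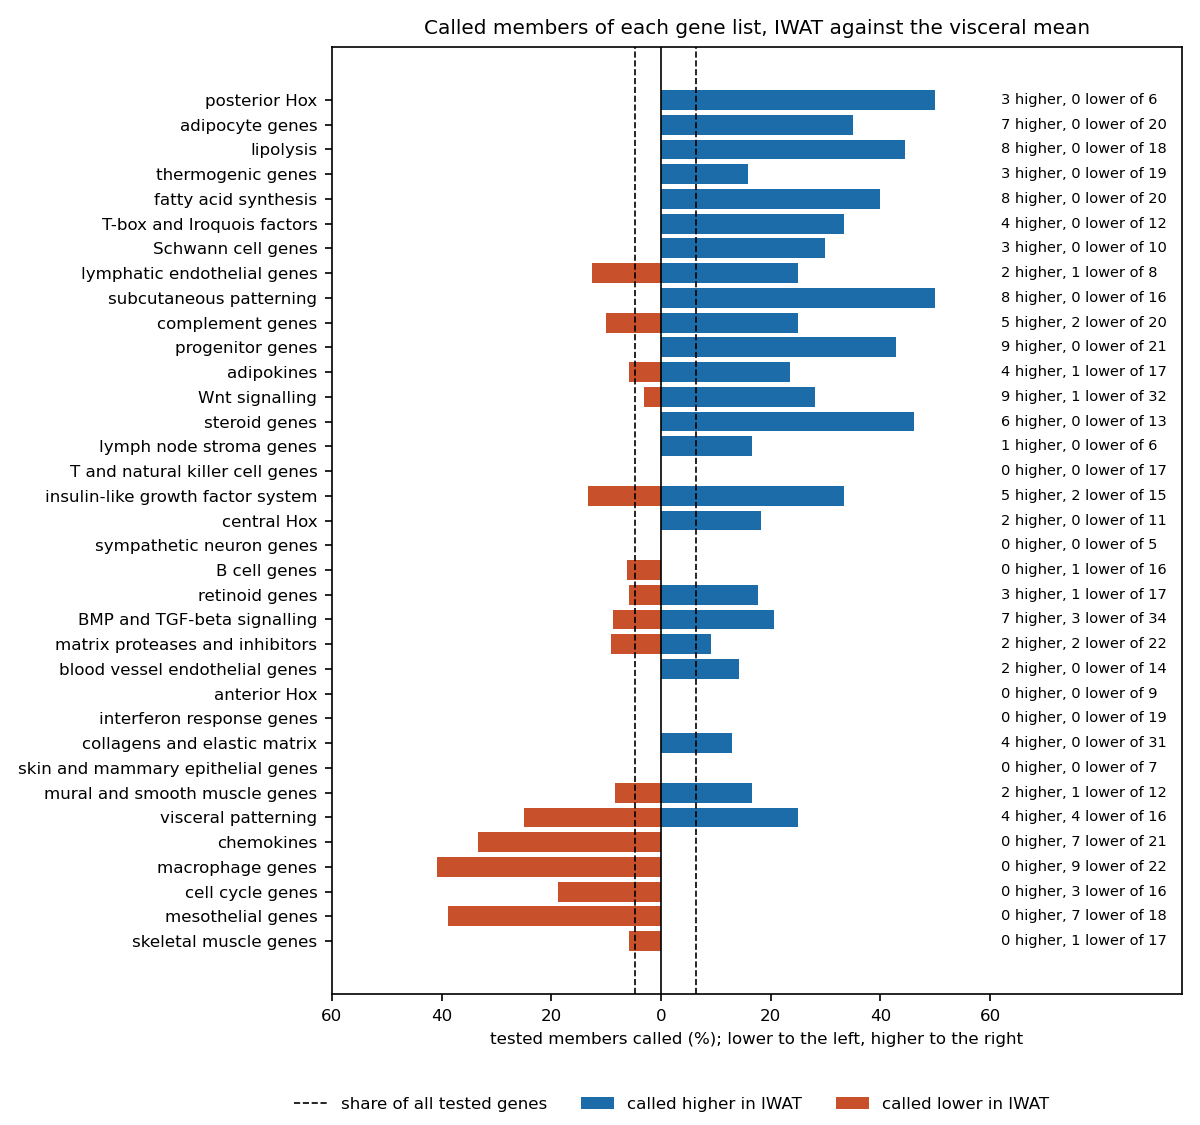
Share of the tested members of each gene list that was called in IWAT against the visceral mean, in percent (horizontal axis), with genes called lower to the left and higher to the right. Lists run from the highest median fold change at the top to the lowest at the bottom, dashed lines mark the shares over all tested genes (6.46% higher and 4.64% lower), and counts stand at the right. Lists of adipocytes, lipid handling, progenitors and posterior Hox genes lay far to the right and those of macrophages, chemokines and mesothelium to the left.

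The smallest adjusted p among the calls, 0.00763 by edgeR, belonged to a pair of developmental transcription factors, Tbx15 and Zfhx4. Both calls were lost with the 6 visceral libraries fitted as 1 group, without IWAT 1 and with the adipocyte level as a covariate. Tbx15, a T-box factor known for its role in the skeleton and in adipocyte identity (chr3:99240381-99354259, GRCm38), had 22.7, 23.6 and 17.2 CPM in IWAT, against 0.19, 0.285 and 0.146 CPM in EWAT and 19.7, 4.81 and 10.8 CPM in RWAT. The 3 IWAT libraries were far above EWAT and above RWAT 2 and RWAT 3, while RWAT 1 reached above the lowest of them. Tbx15 had a log2 fold change of 3.75 ± 0.37 (SE, edgeR adjusted p = 0.00763). Its log2 fold change was 6.65 against EWAT and 0.85 against RWAT, and the step between the visceral depots was itself called (RWAT minus EWAT 5.8, edgeR adjusted p = 0.00562). The call of that step was lost when any 1 EWAT library was left out. IWAT against RWAT was not called for this gene.

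Zfhx4, a large zinc finger and homeobox factor (chr3:5218526-5415857), had 85.8, 112 and 49.6 CPM in IWAT, against 7.61, 10.2 and 7.32 CPM in EWAT and 36, 34.9 and 45.6 CPM in RWAT. No visceral library reached the IWAT range. Zfhx4 had a log2 fold change of 2.19 ± 0.23 (SE, edgeR adjusted p = 0.00763). Ebf3, of the early B-cell factor family that also acts in adipocytes, had 35.1, 34.8 and 25.3 CPM in IWAT, against 6.18, 5.93 and 3.76 CPM in EWAT and 13.1, 8.99 and 16.3 CPM in RWAT, again with no overlap. Ebf3 had a log2 fold change of 1.95 ± 0.23 (SE, edgeR adjusted p = 0.00875). The log2 fold change of Zfhx4 was 3.3 against EWAT and 1.09 against RWAT, and that of Ebf3 was 2.58 against EWAT and 1.31 against RWAT. Both were picked after their values were seen, for their small p.

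Of 16 tested genes linked to subcutaneous patterning, 8 were called higher and 0 lower, with a median log2 fold change of 1.26 against 0.02 over all genes tested. Shox2, a homeobox factor of the limb and heart, had 17.9, 26 and 7.29 CPM in IWAT, against 0.428, 0.114 and 0.244 CPM in EWAT and 11.4, 0.636 and 0.681 CPM in RWAT. RWAT 1 alone of the visceral libraries overlapped IWAT. Shox2 had a log2 fold change of 3.98 ± 0.81 (SE, edgeR adjusted p = 0.0227). For Shox2 the fold change was 5.32 without RWAT 1. Twist1, a helix-loop-helix factor of mesoderm, had 29.1, 20.5 and 15.5 CPM in IWAT, against 9.56, 9.01 and 7.13 CPM in EWAT and 10.3, 9.17 and 10.1 CPM in RWAT with no overlap. Twist1 had a log2 fold change of 1.24 ± 0.23 (SE, edgeR adjusted p = 0.0189). Lmx1a, Meox2 and Emx2 were also called, with log2 fold changes of 2.55, 0.84 and 1.77. En1 and Sfrp2, both listed as subcutaneous genes, were not called: En1 had 1.83, 4.01 and 4.64 CPM in IWAT, against 2.66, 0.684 and 0.879 CPM in EWAT and 3.19, 4.68 and 3.48 CPM in RWAT, and Sfrp2 had 71.7, 37.6 and 43.1 CPM in IWAT, against 43.9, 35.1 and 33.6 CPM in EWAT and 52.2, 83.6 and 31.5 CPM in RWAT. The count of 8 was 0 without IWAT 1, 1 without IWAT 2 and 4 without EWAT 3 or RWAT 2, and the median stayed between 0.8 and 1.25 when any 1 white library was left out.

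**Figure D3:**
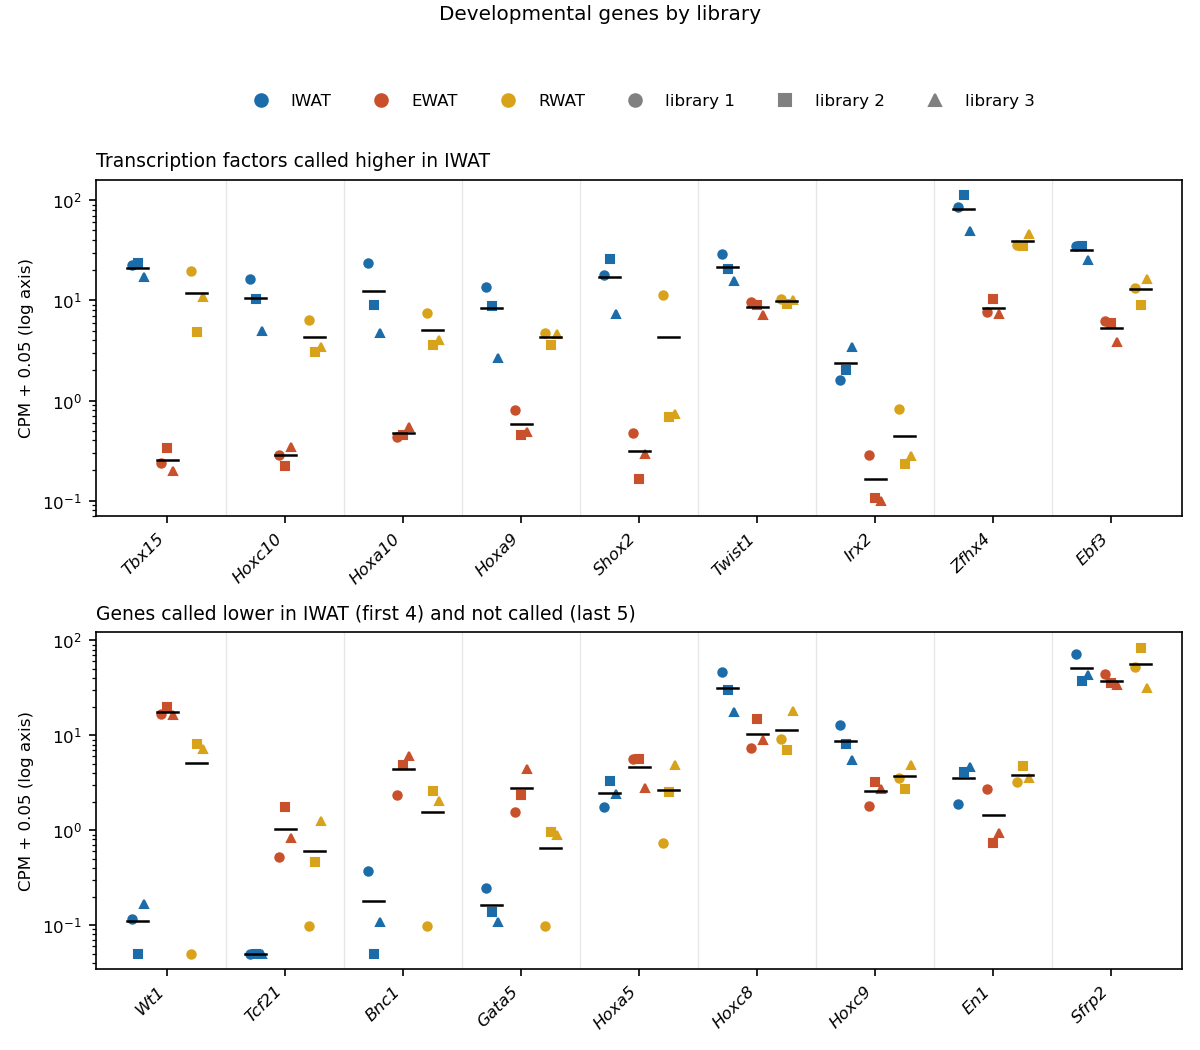
CPM of 18 developmental genes in each library (vertical axis, log scale after adding 0.05), with IWAT, EWAT and RWAT from left to right for each gene. Symbols mark libraries 1 to 3 and black lines the depot means. Tbx15 and the posterior Hox genes were low in EWAT and nearer to IWAT in RWAT, whereas Wt1 and Tcf21 were near 0 in IWAT and Wt1 was at 0 in RWAT 1.

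Hox genes, which set position along the body axis, were called among posterior and central members. Of 6 tested posterior Hox genes 3 were called higher, of 11 central ones 2, and of 9 anterior ones 0, with median log2 fold changes of 1.98, 0.46 and 0.11. The share called over all genes tested was 6.46% higher and 4.64% lower. The difference between these 3 groups was not tested. Hoxc10 (chr15:102966796-102971893) had 16.3, 10.2 and 4.94 CPM in IWAT, against 0.238, 0.171 and 0.293 CPM in EWAT and 6.33, 3 and 3.4 CPM in RWAT. EWAT was lowest throughout, and RWAT 1 alone overlapped IWAT. Hoxc10 had a log2 fold change of 3.37 ± 0.41 (SE, edgeR adjusted p = 0.0148). Hoxa10 had 23.6, 9.04 and 4.7 CPM in IWAT, against 0.381, 0.399 and 0.488 CPM in EWAT and 7.44, 3.54 and 4.01 CPM in RWAT, with the same overlap. Hoxa10 had a log2 fold change of 3.08 ± 0.47 (SE, edgeR adjusted p = 0.0161). For Hoxa10 the fold change was 2.23 without IWAT 1. Hoxa9 had 13.5, 8.69 and 2.59 CPM in IWAT, against 0.761, 0.399 and 0.439 CPM in EWAT and 4.64, 3.54 and 4.62 CPM in RWAT, where IWAT 3 lay below all of RWAT. Hoxa9 had a log2 fold change of 2.44 ± 0.43 (SE, edgeR adjusted p = 0.0171). The log2 fold change of Hoxc10 was 5.44 against EWAT and 1.3 against RWAT, but its step between the visceral depots was not called (RWAT minus EWAT 4.14, edgeR adjusted p = 0.194).

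Hoxc5 and Hoxa7 were the central genes called, with no overlap, with log2 fold changes of 1.53 and 1.07. Hoxc9 had 12.7, 8.02 and 5.41 CPM in IWAT, against 1.76, 3.14 and 2.68 CPM in EWAT and 3.48, 2.68 and 4.77 CPM in RWAT, with no overlap but no call. Hoxc9 had a log2 fold change of 1.52 ± 0.5 (SE, edgeR adjusted p = 0.0696). Hoxc8 had 46.4, 30.2 and 17.6 CPM in IWAT, against 7.23, 14.9 and 8.83 CPM in EWAT and 9.13, 7.04 and 17.9 CPM in RWAT, and it was not called. Hoxc8 had a log2 fold change of 1.54 ± 0.51 (SE, edgeR adjusted p = 0.0722), with RWAT 3 above the lowest IWAT library. Hoxa5, often given as a visceral marker, had 1.7, 3.25 and 2.35 CPM in IWAT, against 5.61, 5.59 and 2.73 CPM in EWAT and 0.676, 2.45 and 4.77 CPM in RWAT, with the groups overlapping. Hoxa5 had a log2 fold change of -0.51 ± 0.54 (SE, edgeR adjusted p = 0.574). The posterior count was 0 without IWAT 1 or IWAT 2, and the central count 0 without EWAT 1, EWAT 3, IWAT 1, IWAT 2, RWAT 1 or RWAT 2 and 1 without IWAT 3. Among central genes DESeq2 called 4 higher, limma-voom 2 higher. Neighbouring Hox genes and their antisense transcripts overlap, and the strand setting of the counting was not given in the sources used here, so their reads may be shared.

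Among 12 T-box and Iroquois factors, 4 were called higher and 0 lower, with a median of 1.42. Beside Tbx15 these were Irx2 and Irx3, Iroquois homeobox factors, and Tbx5, a T-box factor of the forelimb and heart. Irx2 had 1.57, 1.96 and 3.35 CPM in IWAT, against 0.238, 0.057 and 0.0488 CPM in EWAT and 0.773, 0.182 and 0.227 CPM in RWAT, with no overlap. Irx2 had a log2 fold change of 3.36 ± 0.6 (SE, edgeR adjusted p = 0.0176). Tbx5 had 4.57, 4.68 and 0.412 CPM in IWAT, against 0.0951, 0.114 and 0.0488 CPM in EWAT and 0.724, 0 and 0.151 CPM in RWAT, and its highest visceral library lay above IWAT 3. Tbx5 had a log2 fold change of 4.27 ± 0.89 (SE, edgeR adjusted p = 0.0236). For Tbx5 the fold change was 5.35 without RWAT 1, which left RWAT at 0 and 0.151 CPM, below the level read as detectable. The count of 4 was 0 without IWAT 1, 1 without IWAT 2 and 2 without EWAT 3. DESeq2 called 6 higher, limma-voom 6 higher.

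Of 16 tested genes linked to visceral patterning, 4 were called lower and 4 higher, with a median of -0.48. Those called lower, Wt1, Tcf21, Bnc1 and Gata5, are factors of the mesothelium and of visceral mesoderm. Wt1 (chr2:105126529-105173616) had 0.0653, 0 and 0.118 CPM in IWAT, against 16.6, 19.7 and 16.4 CPM in EWAT and 0, 8.04 and 7.19 CPM in RWAT. It gave 3 counts in all of IWAT, and the visceral libraries together gave 207 times the level after scaling for depth, with a counting interval of 70.7 to 1010 (edgeR adjusted p = 0.0235, not called by limma-voom). RWAT 1 was at 0 like IWAT 2, so the groups overlapped. Tcf21, a factor of visceral mesenchyme, was at 0 in all 3 IWAT libraries, against 0.476, 1.71 and 0.781 CPM in EWAT and 0.0483, 0.409 and 1.21 CPM in RWAT, at least 13-fold lower in IWAT with 3 counts summed over IWAT taken as the limit (edgeR adjusted p = 0.0469).

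The 4 called higher against the name of their list were Thbd, Irx3, Osr1 and Gpc4. Thbd, the anticoagulant receptor thrombomodulin, had 148, 160.1 and 93.8 CPM in IWAT, against 76.4, 56.9 and 51.5 CPM in EWAT and 90.8, 52.7 and 72.7 CPM in RWAT, with no overlap. Thbd had a log2 fold change of 1.01 ± 0.24 (SE, edgeR adjusted p = 0.0316). Gpc4, a heparan sulfate proteoglycan that adipocytes release, had 37.5, 28.6 and 26.1 CPM in IWAT, against 25.3, 16.4 and 17.1 CPM in EWAT and 12.4, 16.2 and 21.3 CPM in RWAT, with no overlap. Gpc4 had a log2 fold change of 0.77 ± 0.2 (SE, edgeR adjusted p = 0.0394), not called with upper-quartile scaling or in the 9 white libraries alone. Nr2f1, a nuclear receptor, had 1.05, 2.41 and 1.65 CPM in IWAT, against 5.04, 4.73 and 3.81 CPM in EWAT and 1.4, 2.91 and 3.48 CPM in RWAT and was not called. Nr2f1 had a log2 fold change of -1 ± 0.39 (SE, edgeR adjusted p = 0.109), with RWAT 1 below the highest IWAT library. The lower count of 4 was 0 without IWAT 1, IWAT 2 or RWAT 2, 1 without EWAT 1, EWAT 3 or IWAT 3 and 2 without BAT 1 or RWAT 3, and the higher count 0 without EWAT 3, IWAT 1, IWAT 2 or RWAT 2, 1 without RWAT 1 and 2 without EWAT 1. DESeq2 called 6 higher and 5 lower, limma-voom 4 higher and 1 lower.

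Of 18 tested mesothelial genes, 7 were called lower and 0 higher, and the median of -2.65 stayed between -4.02 and -1.98 when any 1 white library was left out. The list had a mean log2 CPM of 0.44, -0.23 and -0.44 in IWAT, against 2.3, 2.58 and 3.62 in EWAT. In RWAT it was -0.45, 2.29 and 2.86, so RWAT 1 was as low as IWAT for the list as a whole. Krt8, a keratin of simple epithelia, led the genes lower in IWAT with 0.0653, 0.0446 and 0 CPM in IWAT, against 10.8, 14.8 and 37 CPM in EWAT and 0.241, 6.27 and 2.95 CPM in RWAT. It gave 2 counts in all of IWAT, and the visceral libraries together gave 340 times the level after scaling for depth, with a counting interval of 93.9 to 2810 (edgeR adjusted p = 0.0161, not called by limma-voom). Upk1b, a uroplakin, had 0.457, 0.178 and 0.118 CPM in IWAT, against 5.99, 6.1 and 19.9 CPM in EWAT and 0.0966, 5.4 and 4.99 CPM in RWAT, and RWAT 1 lay below all of IWAT. Upk1b had a log2 fold change of -4.61 ± 1.15 (SE, edgeR adjusted p = 0.0351). RWAT 1 was likewise low for Krt18, Bnc1 and Upk3b. Msln, mesothelin, had 1.63, 0.446 and 0.235 CPM in IWAT, against 5.33, 2.22 and 10.7 CPM in EWAT and 0.338, 2.36 and 12 CPM in RWAT and was not called. Msln had a log2 fold change of -2.83 ± 1.03 (SE, edgeR adjusted p = 0.0921), with RWAT 1 below the highest IWAT library. The count of 7 was 0 without IWAT 1 or IWAT 2, 1 without RWAT 2 and 2 without EWAT 3 or IWAT 3. DESeq2 called 11 lower, limma-voom 0 lower.

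The 12 genes per direction with the largest fold changes were taken from those called with no overlap and at least 5 CPM in the higher group. Inmt, an enzyme that methylates tryptamine, led the genes higher in IWAT with 54.7, 22.8 and 28.6 CPM in IWAT, against 0.0476, 0.342 and 0.586 CPM in EWAT and 2.85, 0.363 and 1.51 CPM in RWAT. EWAT 1 was lowest and RWAT 1 the highest of the visceral libraries. Inmt had a log2 fold change of 5.61 ± 0.95 (SE, edgeR adjusted p = 0.0164). Apod, a lipocalin that carries small lipids, had 64.2, 127 and 73.5 CPM in IWAT, against 0.618, 1.71 and 1.32 CPM in EWAT and 36.9, 3.82 and 20.8 CPM in RWAT. Apod had a log2 fold change of 4.15 ± 0.73 (SE, edgeR adjusted p = 0.0174), and no visceral library reached IWAT. Cfd, the complement factor adipsin made by adipocytes, had 7139, 3794 and 1868 CPM in IWAT, against 20.8, 285 and 180.3 CPM in EWAT and 1071, 69.7 and 382 CPM in RWAT. Cfd had a log2 fold change of 3.9 ± 1.03 (SE, edgeR adjusted p = 0.0387), not called by limma-voom, with the groups apart and IWAT higher. For Cfd the fold change was 3.3 without IWAT 1.

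Some leading genes act on small molecules. Cyp2e1, a cytochrome P450 that oxidises ethanol and fatty acids, had 493, 207 and 395 CPM in IWAT, against 0.951, 12.9 and 23.5 CPM in EWAT and 39.8, 9.22 and 126 CPM in RWAT. Cyp2e1 had a log2 fold change of 3.76 ± 1.08 (SE, edgeR adjusted p = 0.0479), not called by limma-voom, and the lowest IWAT library was above the highest visceral one. For Cyp2e1 the fold change was 4.38 without RWAT 3. The call for Cyp2e1 was lost in 16 of 24 alternative settings, over which the log2 fold change ran from 0.12, with the adipocyte level as a covariate, to 5.09. Adh7, an alcohol and retinol dehydrogenase, had 13.9, 7.13 and 2.94 CPM in IWAT, against 0.428, 0.228 and 0.0488 CPM in EWAT and 2.8, 0.5 and 0.984 CPM in RWAT. Adh7 had a log2 fold change of 3.76 ± 0.64 (SE, edgeR adjusted p = 0.0165), with every IWAT library above all 6 visceral ones. For Adh7 the fold change was 3.09 without IWAT 1. Gsta4, a glutathione transferase that clears lipid aldehydes, had 29.1, 12.5 and 4.17 CPM in IWAT, against 0.19, 0.456 and 1.02 CPM in EWAT and 3.04, 0.636 and 2.5 CPM in RWAT. Gsta4 had a log2 fold change of 3.82 ± 0.78 (SE, edgeR adjusted p = 0.0227), and no visceral library reached IWAT. For Gsta4 the fold change was 2.95 without IWAT 1. In all of these EWAT was lower than RWAT on average, but none of the RWAT to EWAT steps was called.

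Islr2, a leucine-rich cell surface protein, had 26.8, 50.6 and 14.2 CPM in IWAT, against 0.143, 1.37 and 0.439 CPM in EWAT and 12.1, 2.36 and 10.9 CPM in RWAT. Islr2 had a log2 fold change of 3.72 ± 0.61 (SE, edgeR adjusted p = 0.0161), with the groups apart and IWAT higher. Osr2, an odd-skipped zinc finger factor, had 6.07, 9.31 and 2 CPM in IWAT, against 0.143, 0.285 and 0.0488 CPM in EWAT and 1.64, 0.182 and 0.454 CPM in RWAT. Osr2 had a log2 fold change of 4.04 ± 0.67 (SE, edgeR adjusted p = 0.0161), and the lowest IWAT library was above the highest visceral one. For Osr2 the fold change was 4.7 without RWAT 1. Cd209d, a C-type lectin of macrophages and dendritic cells with near relatives in a gene cluster whose reads it may share, had 44.5, 34.5 and 22.5 CPM in IWAT, against 0.0951, 1.08 and 0.537 CPM in EWAT and 13.5, 3 and 7.79 CPM in RWAT. Cd209d had a log2 fold change of 3.98 ± 0.85 (SE, edgeR adjusted p = 0.0243), with every IWAT library above all 6 visceral ones. Acsm3, a medium-chain acyl-CoA synthetase, was called with a log2 fold change of 3.6, but not by limma-voom. Fasn and Cdh19, the other two, are given with their pathways below.

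**Figure D4:**
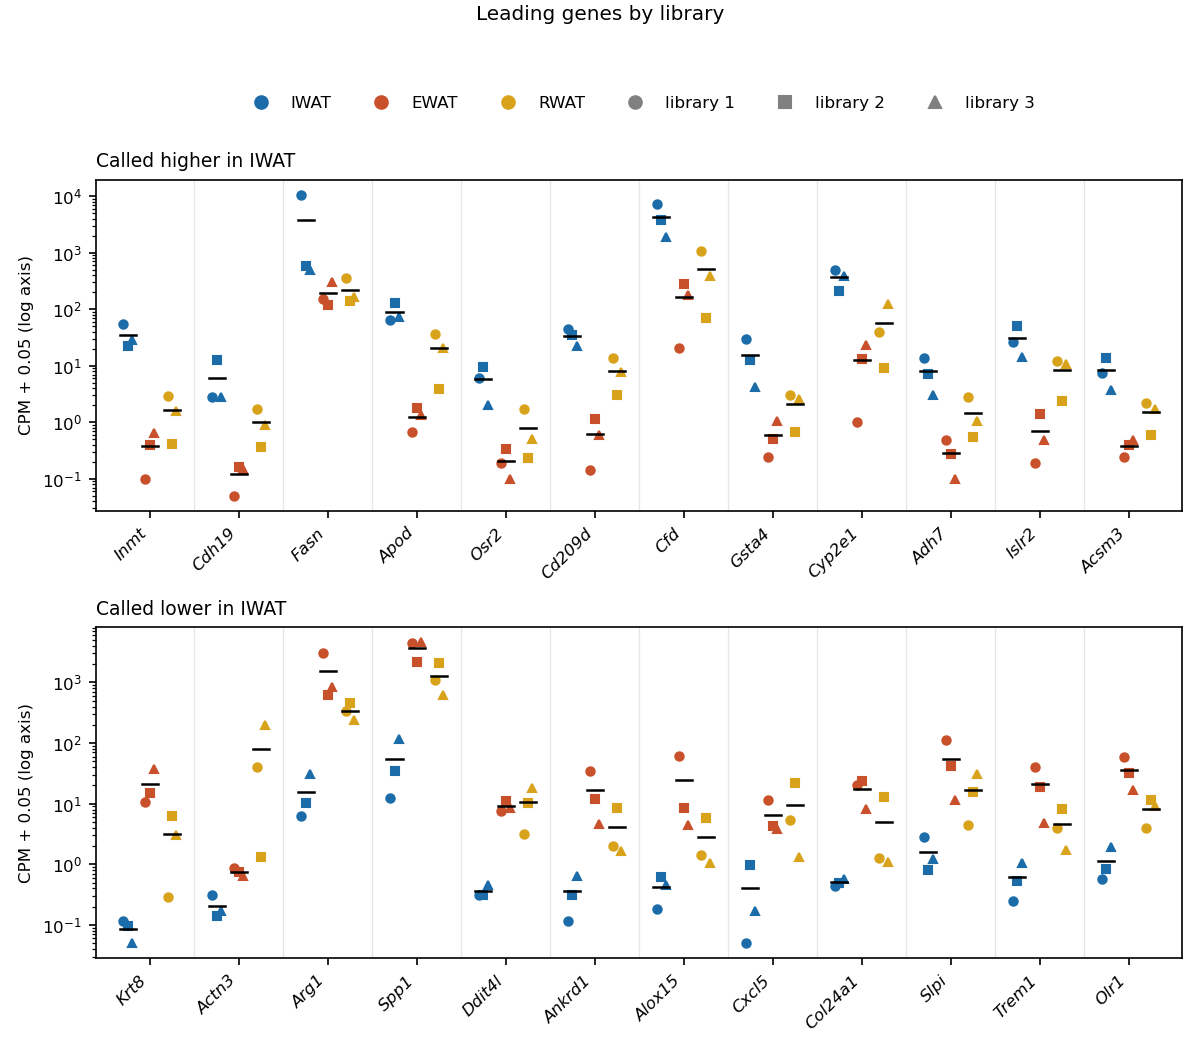
CPM of the 12 genes with the largest fold changes in each direction, in each library (vertical axis, log scale after adding 0.05), with IWAT, EWAT and RWAT from left to right for each gene. Symbols mark libraries 1 to 3 and black lines the depot means. No IWAT library overlapped the 6 visceral ones for any of the 24 genes, since the choice asked for that, and Fasn in IWAT 1 stood far above IWAT 2 and IWAT 3.

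Of 20 tested genes of fatty acid synthesis 8 were called higher and 0 lower, with a median log2 fold change of 1.53, 1.58 against EWAT and 1.5 against RWAT. Fasn, fatty acid synthase, had 10523, 591 and 486 CPM in IWAT, against 149, 117 and 307 CPM in EWAT and 350.4, 139 and 164 CPM in RWAT. IWAT 1 stood far above the other two IWAT libraries, all of which were above the visceral ones. Fasn had a log2 fold change of 4.24 ± 0.99 (SE, edgeR adjusted p = 0.0302), not called by limma-voom. Its fold change was 1.4 without IWAT 1, and DESeq2 gave it no adjusted p. Acaca, the acetyl-CoA carboxylase that feeds synthesis, had 1585, 320.0 and 203 CPM in IWAT, against 86.1, 87 and 125 CPM in EWAT and 149, 88.2 and 97.7 CPM in RWAT. Acaca had a log2 fold change of 2.74 ± 0.6 (SE, edgeR adjusted p = 0.0261), and no visceral library reached IWAT. For Acaca the fold change was 1.31 without IWAT 1.

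The fold changes of Acacb and Srebf1 moved less without IWAT 1 than those of Fasn and Acaca. The calls of Acacb and Srebf1 were still lost without it. Acacb, the carboxylase whose product also restrains fatty acid oxidation, had 119, 137 and 119 CPM in IWAT, against 4.14, 21.4 and 16.6 CPM in EWAT and 22.5, 23 and 37.6 CPM in RWAT, with the 3 IWAT libraries close together. Acacb had a log2 fold change of 2.66 ± 0.55 (SE, edgeR adjusted p = 0.0235), with the groups apart and IWAT higher. Srebf1, which encodes the sterol regulatory factor that drives lipogenic genes, had 394, 259.8 and 212 CPM in IWAT, against 73.2, 83.9 and 98.4 CPM in EWAT and 139.8, 67.1 and 94 CPM in RWAT, again with no overlap. Srebf1 had a log2 fold change of 1.64 ± 0.29 (SE, edgeR adjusted p = 0.0175). Scd1, the desaturase, had 35350.4, 8770.4 and 13801 CPM in IWAT, against 1009.5, 4104 and 3204 CPM in EWAT and 5690.3, 2708 and 7496 CPM in RWAT. Scd1 had a log2 fold change of 2.33 ± 0.62 (SE, edgeR adjusted p = 0.0395), and the lowest IWAT library was above the highest visceral one. Slc25a1, Me1 and Acss2, which supply citrate, NADPH and acetyl-CoA, were called with log2 fold changes of 2.11, 2.31 and 2.58. Acly, the citrate lyase that comes just before Fasn, had 1006, 171 and 166 CPM in IWAT, against 309.8, 166 and 320.2 CPM in EWAT and 216, 204 and 144 CPM in RWAT and was not called. DESeq2 called 9 higher, limma-voom 3 higher. Acly had a log2 fold change of 1 ± 0.53 (SE, edgeR adjusted p = 0.225), with EWAT 1, EWAT 2, EWAT 3, RWAT 1 and RWAT 2 above the lowest IWAT library. The count of 8 was 0 without IWAT 1 or IWAT 2, 1 without EWAT 3 or RWAT 2 and 3 without EWAT 1 or RWAT 1, and the median was lowest without IWAT 1, within a range between 0.71 and 1.86.

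Of 20 tested adipocyte genes all 20 had a positive fold change and 7 were called, against 6.46% of all genes tested called higher. In 16 of the 20 no visceral library reached IWAT, against 11.2% of all genes tested. The median was 1.96, and it stayed between 1.62 and 2.25 when any 1 white library was left out. Cebpa, a master factor of adipocyte differentiation, had 672, 414 and 437 CPM in IWAT, against 137, 192 and 224 CPM in EWAT and 224, 115 and 195 CPM in RWAT. Cebpa had a log2 fold change of 1.49 ± 0.33 (SE, edgeR adjusted p = 0.0263), with every IWAT library above all 6 visceral ones. Plin1, the coat protein of lipid droplets, had 1726, 1078 and 1038 CPM in IWAT, against 71.8, 435 and 267 CPM in EWAT and 549.7, 159.9 and 453 CPM in RWAT. Plin1 had a log2 fold change of 2.02 ± 0.57 (SE, edgeR adjusted p = 0.0457), and no visceral library reached IWAT. Retn, the hormone resistin, had 1584, 303 and 324 CPM in IWAT, against 24.9, 124 and 118 CPM in EWAT and 141, 27.7 and 150.1 CPM in RWAT. Retn had a log2 fold change of 2.92 ± 0.74 (SE, edgeR adjusted p = 0.0356), not called by limma-voom, with the groups apart and IWAT higher. For Retn the fold change was 1.69 without IWAT 1. Adipoq, adiponectin, had 2155, 1716 and 2321 CPM in IWAT, against 34.7, 1006 and 301 CPM in EWAT and 876, 231 and 891 CPM in RWAT. No visceral library reached the IWAT range, EWAT 1 was far below EWAT 2, and the difference was not called. Adipoq had a log2 fold change of 1.92 ± 0.86 (SE, edgeR adjusted p = 0.155). The count of 7 was 0 without EWAT 3, IWAT 1, IWAT 2 or RWAT 2, 1 without EWAT 1 or RWAT 1, 3 without BAT 1 or RWAT 3 and 4 without IWAT 3. DESeq2 called 13 higher, limma-voom 2 higher.

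Of 18 tested lipolysis genes 8 were called higher and 0 lower, with a median of 1.57, against 6.46% and 4.64% of all genes tested. Npr1, the natriuretic peptide receptor that switches on lipolysis through cyclic GMP, had 59, 90.5 and 66.8 CPM in IWAT, against 10.7, 26.1 and 15.4 CPM in EWAT and 30.0, 21.9 and 47.1 CPM in RWAT, with no overlap. Npr1 had a log2 fold change of 1.59 ± 0.29 (SE, edgeR adjusted p = 0.0189). Pde3b, the phosphodiesterase by which insulin restrains lipolysis, had 357, 358 and 333 CPM in IWAT, against 88.6, 148 and 98.2 CPM in EWAT and 149.8, 78.5 and 179.9 CPM in RWAT. Pde3b had a log2 fold change of 1.5 ± 0.37 (SE, edgeR adjusted p = 0.0345), and the lowest IWAT library was above the highest visceral one. Pnpla2, the first lipase of triglyceride breakdown, had 932, 832 and 1033 CPM in IWAT, against 51.3, 320.4 and 204 CPM in EWAT and 329, 138 and 389 CPM in RWAT. Pnpla2 had a log2 fold change of 1.99 ± 0.56 (SE, edgeR adjusted p = 0.0442), with every IWAT library above all 6 visceral ones. G0s2, its inhibitor, had 561, 177 and 177 CPM in IWAT, against 12.7, 76 and 57.2 CPM in EWAT and 82.8, 29.5 and 62 CPM in RWAT. G0s2 had a log2 fold change of 2.52 ± 0.63 (SE, edgeR adjusted p = 0.0353), not called by limma-voom, and no visceral library reached IWAT. For G0s2 the fold change was 1.73 without IWAT 1. Genes that start and that restrain fat release were both among the 8. The count was 0 without IWAT 1 or IWAT 2, 1 without EWAT 1, EWAT 3, RWAT 1 or RWAT 2, 2 without IWAT 3, 4 without BAT 1 and 5 without RWAT 3. DESeq2 called 12 higher, limma-voom 4 higher.

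Of 17 adipokine genes 4 were called higher and 1 lower, against 6.46% and 4.64% of all genes tested. Nrg4, a growth factor that fat releases, had 70.4, 59.2 and 39.1 CPM in IWAT, against 12, 14.5 and 8.44 CPM in EWAT and 22.7, 8.77 and 21.3 CPM in RWAT, with no overlap. Nrg4 had a log2 fold change of 1.98 ± 0.44 (SE, edgeR adjusted p = 0.0267). Rbp4, which carries retinol in blood, had 248, 33.2 and 75.1 CPM in IWAT, against 8.18, 24.5 and 18.5 CPM in EWAT and 17.8, 5.27 and 41.5 CPM in RWAT, with RWAT 3 inside the IWAT range. Rbp4 had a log2 fold change of 2.63 ± 0.76 (SE, edgeR adjusted p = 0.0475), not called with upper-quartile scaling or by limma-voom. For Rbp4 the fold change was 1.5 without IWAT 1. Metrnl, which encodes meteorin-like, was the one lower in IWAT, with 40.2, 50.3 and 80.2 CPM in IWAT, against 134, 88.7 and 165 CPM in EWAT and 178, 129.7 and 79.4 CPM in RWAT. Metrnl had a log2 fold change of -1.18 ± 0.31 (SE, edgeR adjusted p = 0.0393). RWAT 3 lay below IWAT 3, so its groups overlapped. Lep, leptin, had 1276, 469 and 1374 CPM in IWAT, against 13, 784 and 307 CPM in EWAT and 632, 192 and 671 CPM in RWAT. EWAT 2, RWAT 1 and RWAT 3 lay above IWAT 2, and the difference was not called. Lep had a log2 fold change of 1.28 ± 0.92 (SE, edgeR adjusted p = 0.383). The higher count was 0 without EWAT 3, IWAT 1, IWAT 2 or RWAT 2 and 1 without EWAT 1 or RWAT 1, and the lower one 0 without BAT 1, EWAT 1, EWAT 3, IWAT 1, IWAT 2, RWAT 1 or RWAT 2, 2 without EWAT 2 and 3 without IWAT 3. DESeq2 called 5 higher and 5 lower, limma-voom 1 higher and 3 lower.

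Thermogenic genes gave 3 calls higher of 19 tested and 0 lower, with a median of 1.53. Over all genes tested 6.46% were called higher and 4.64% lower. At an unadjusted edgeR p below 0.05 there were 11 of the 19, against 30.8% of all genes tested. In the 9 white libraries alone 9 of the 19 were called higher, against 13% of all genes called there in either direction. Prdm16, a co-regulator that sustains the beige and brown programme, had 12.8, 21.6 and 11.8 CPM in IWAT, against 4.42, 2.22 and 1.81 CPM in EWAT and 5.46, 2.95 and 4.39 CPM in RWAT, with no overlap. Prdm16 had a log2 fold change of 2.15 ± 0.4 (SE, edgeR adjusted p = 0.0193). Ehhadh, a peroxisomal enzyme of fatty acid oxidation, had 44.8, 39.8 and 30.2 CPM in IWAT, against 3.57, 10.8 and 11.6 CPM in EWAT and 12.8, 7.77 and 12.5 CPM in RWAT. Ehhadh had a log2 fold change of 1.97 ± 0.37 (SE, edgeR adjusted p = 0.0201), with the groups apart and IWAT higher. Ebf2, a factor of brown and beige precursors, was called with a log2 fold change of 1.29. Ucp1, the uncoupling protein, was low throughout at 4.44, 8.64 and 1.53 CPM in IWAT, against 0.0951, 0.057 and 2.2 CPM in EWAT and 0.338, 1.5 and 0.454 CPM in RWAT, with EWAT 3 above IWAT 3 and no call. Ucp1 had a log2 fold change of 2.62 ± 1.75 (SE, edgeR adjusted p = 0.346). The count was 0 without IWAT 1, IWAT 2 or RWAT 2, 5 without EWAT 2 or IWAT 3, 6 without BAT 3, 8 without BAT 2 and 9 without BAT 1. DESeq2 called 8 higher and 2 lower, limma-voom 4 higher and 0 lower.

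Of 21 tested progenitor genes of the fat stroma 9 were called higher and 0 lower, with a median of 1.21. Pi16, a marker of the Dpp4-positive mesenchymal progenitors that surround the depot (chr17:29317680-29330593), had 341, 566 and 135 CPM in IWAT, against 4.47, 8.9 and 3.47 CPM in EWAT and 146, 19.2 and 100.1 CPM in RWAT. All 3 EWAT libraries were below the rest, and RWAT 1 reached into the IWAT range. Pi16 had a log2 fold change of 3.96 ± 0.66 (SE, edgeR adjusted p = 0.0163). Dpp4 itself, a surface peptidase, had 99.9, 161 and 41.6 CPM in IWAT, against 4, 8.9 and 11.6 CPM in EWAT and 47.8, 14.4 and 47.1 CPM in RWAT. Dpp4 had a log2 fold change of 2.55 ± 0.46 (SE, edgeR adjusted p = 0.0176), with RWAT 1 and RWAT 3 above the lowest IWAT library. Dact2, an intracellular modulator of Wnt signals, had 54.5, 33.2 and 8.29 CPM in IWAT, against 0.333, 0.855 and 0.293 CPM in EWAT and 3.91, 0.59 and 9.31 CPM in RWAT, with RWAT 3 just above IWAT 3. Dact2 had a log2 fold change of 4.42 ± 0.85 (SE, edgeR adjusted p = 0.0205). For Dact2 the fold change was 3.79 without IWAT 1. Pdgfra, the receptor that marks fat stroma as a whole, had 179, 188 and 139.7 CPM in IWAT, against 108, 83.5 and 76.9 CPM in EWAT and 109, 135 and 112 CPM in RWAT, a smaller difference but with no overlap. Pdgfra had a log2 fold change of 0.71 ± 0.17 (SE, edgeR adjusted p = 0.0336). The median was 1.86 against EWAT and 0.57 against RWAT. The count of 9 was 0 without IWAT 1 or IWAT 2, 2 without EWAT 3, 3 without RWAT 2 and 5 without RWAT 1.

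For matrix genes the shares over all genes tested were 6.46% called higher and 4.64% called lower. Of 31 collagens and elastic fibre genes 4 were called higher and 0 lower, with a median of 0, the same as over all genes to within 0.02. Dcn, the small proteoglycan decorin, had 1044, 1072 and 462 CPM in IWAT, against 115, 273 and 179 CPM in EWAT and 422, 253 and 433 CPM in RWAT. Dcn had a log2 fold change of 1.7 ± 0.35 (SE, edgeR adjusted p = 0.023), and the lowest IWAT library was above the highest visceral one. Fbln1, Ogn and Col14a1 were also called, with log2 fold changes of 1.42, 1.46 and 1.24. Of 24 alternative settings the call was lost in 17 for Col14a1 (limma-voom, upper-quartile scaling and the 9 white libraries alone among them), 10 for Ogn, 9 for Fbln1 and 7 for Dcn. Of 22 matrix proteases and inhibitors 2 were called higher and 2 lower. Mmp3, stromelysin, had 65.4, 23.9 and 38.6 CPM in IWAT, against 0.666, 0.855 and 1.27 CPM in EWAT and 35, 15.5 and 5.3 CPM in RWAT, with RWAT 1 inside the IWAT range. Mmp3 had a log2 fold change of 3.35 ± 0.54 (SE, edgeR adjusted p = 0.0161). Timp1, a protease inhibitor, was lower in IWAT, with 2.61, 22.1 and 18.2 CPM in IWAT, against 343, 138 and 119 CPM in EWAT and 45.1, 131 and 53.1 CPM in RWAT. Timp1 had a log2 fold change of -3.1 ± 0.84 (SE, edgeR adjusted p = 0.041), and no visceral library was as low as IWAT. The collagen count was 0 without EWAT 3, IWAT 1, IWAT 2 or RWAT 2, 1 without EWAT 1 and 2 without RWAT 1, and the protease counts were 0 without IWAT 1 or IWAT 2 and 4 without BAT 2 or EWAT 2 for those higher and 0 without EWAT 1, EWAT 3, IWAT 1, IWAT 2, IWAT 3, RWAT 1 or RWAT 2 and 1 without BAT 1 or RWAT 3 for those lower. Among the proteases and inhibitors DESeq2 called 6 higher and 4 lower, limma-voom 2 higher and 2 lower.

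Of 20 tested complement genes 5 were called higher and 2 lower, and the median was 1.23. C3, the central component, had 1415, 1567 and 891 CPM in IWAT, against 189, 311 and 181 CPM in EWAT and 500.1, 292 and 517 CPM in RWAT. C3 had a log2 fold change of 2.04 ± 0.54 (SE, edgeR adjusted p = 0.0387), with every IWAT library above all 6 visceral ones. C4b had 1334, 1928 and 1832 CPM in IWAT, against 181, 569.7 and 179.6 CPM in EWAT and 734, 252 and 580.2 CPM in RWAT, and the proteases C1ra and C1s1, each with a near copy in the genome, were called with log2 fold changes of 1.89 and 1.71. C4b had a log2 fold change of 2.08 ± 0.56 (SE, edgeR adjusted p = 0.0403), and no visceral library reached IWAT. The 2 called lower, C3ar1 and C1qb, are made by macrophages. C3ar1, the receptor for a fragment of C3, had 69.4, 88.3 and 173 CPM in IWAT, against 586, 316 and 778 CPM in EWAT and 484, 501 and 227 CPM in RWAT, with no overlap. C3ar1 had a log2 fold change of -2.11 ± 0.42 (SE, edgeR adjusted p = 0.0214). The higher count was 0 without IWAT 1 or IWAT 2, 1 without EWAT 1, EWAT 3, RWAT 1 or RWAT 2, 2 without RWAT 3 and 8 without BAT 2, and the lower one 0 without IWAT 1, IWAT 2 or RWAT 2 and 1 without BAT 1, EWAT 3 or RWAT 1. DESeq2 called 10 higher and 4 lower, limma-voom 4 higher and 3 lower.

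Of 22 tested macrophage genes 9 were called lower and 0 higher, against 4.64% and 6.46% of all genes tested. A negative fold change was seen in 20, with a median log2 fold change of -1.42, -1.66 against EWAT and -1.1 against RWAT. Spp1, osteopontin, a secreted matrix protein of lipid-associated macrophages, had 12.3, 34.1 and 118 CPM in IWAT, against 4510.4, 2129.9 and 4575 CPM in EWAT and 1085, 2119 and 624 CPM in RWAT, with IWAT 3 highest in IWAT. Spp1 had a log2 fold change of -5.31 ± 1.03 (SE, edgeR adjusted p = 0.0205). For Spp1 the fold change was -6.57 without IWAT 3. Lyz2, lysozyme, had 1429.9, 1296 and 1543 CPM in IWAT, against 6423, 8215 and 5417 CPM in EWAT and 4311, 2844 and 3807 CPM in RWAT, with no overlap. Lyz2 had a log2 fold change of -1.8 ± 0.3 (SE, edgeR adjusted p = 0.0164). Cx3cr1, the fractalkine receptor, had 3.46, 2.72 and 4.53 CPM in IWAT, against 59.8, 42.7 and 48.1 CPM in EWAT and 9.8, 31.2 and 4.84 CPM in RWAT. Cx3cr1 had a log2 fold change of -2.96 ± 0.67 (SE, edgeR adjusted p = 0.0282), with the groups apart and IWAT lower. Adgre1, which encodes F4/80, was called with overlapping groups, at 172, 139 and 328 CPM in IWAT, against 459, 408 and 767 CPM in EWAT and 534, 532 and 284 CPM in RWAT. Adgre1 had a log2 fold change of -1.22 ± 0.35 (SE, edgeR adjusted p = 0.0482), not called in the 9 white libraries alone.

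Csf1r, the growth factor receptor that all macrophages need, had 467, 371 and 495 CPM in IWAT, against 508, 427 and 642 CPM in EWAT and 572, 457 and 313 CPM in RWAT. Csf1r had a log2 fold change of -0.13 ± 0.25 (SE, edgeR adjusted p = 0.786), with EWAT 2, RWAT 2 and RWAT 3 below the highest IWAT library. Mrc1, the mannose receptor of resident macrophages, had 535, 556 and 598 CPM in IWAT, against 325, 381 and 511 CPM in EWAT and 892, 903 and 521 CPM in RWAT. Mrc1 had a log2 fold change of 0.01 ± 0.28 (SE, edgeR adjusted p = 0.988), with RWAT 1 and RWAT 2 above the lowest IWAT library. Cd163, a haemoglobin scavenger receptor of resident macrophages, had 352, 269 and 249.7 CPM in IWAT, against 60.3, 99.8 and 30.8 CPM in EWAT and 189, 122 and 189 CPM in RWAT, above all visceral libraries in each IWAT library but not called. Cd163 had a log2 fold change of 1.5 ± 0.45 (SE, edgeR adjusted p = 0.0545). Trem2, a lipid receptor, had 4.31, 15.7 and 91.2 CPM in IWAT, against 153, 193 and 336 CPM in EWAT and 161, 173 and 112 CPM in RWAT and was not called. Trem2 had a log2 fold change of -2.31 ± 0.77 (SE, edgeR adjusted p = 0.0721), and the highest IWAT library was below the lowest visceral one. For Trem2 the fold change was -4.2 without IWAT 3. IWAT 3 stood nearer to the visceral libraries than IWAT 1 and IWAT 2 in Spp1 and Trem2. The count of 9 was 0 without IWAT 1 or IWAT 2, 2 without EWAT 3 or RWAT 2, 3 without RWAT 1 and 5 without EWAT 1. DESeq2 called 1 higher and 15 lower, limma-voom 0 higher and 13 lower.

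Bcl2a1b, Cd300ld and Msr1 were picked for their small p after their values were seen. Bcl2a1b, a survival protein of the Bcl2 family with near-identical copies whose reads cannot be told apart with certainty, had 2.81, 5.66 and 5.82 CPM in IWAT, against 106, 113 and 95.7 CPM in EWAT and 37.1, 40.1 and 23 CPM in RWAT. Bcl2a1b had a log2 fold change of -3.63 ± 0.42 (SE, edgeR adjusted p = 0.00875), with every IWAT library below all 6 visceral ones. Cd300ld, a myeloid surface receptor, had 23.3, 23.7 and 33.7 CPM in IWAT, against 87.4, 96.8 and 70.2 CPM in EWAT and 92.6, 73 and 93.1 CPM in RWAT. Cd300ld had a log2 fold change of -1.67 ± 0.19 (SE, edgeR adjusted p = 0.00875), and no visceral library was as low as IWAT. Msr1, the scavenger receptor for modified lipoproteins, had 22.7, 30.1 and 48.4 CPM in IWAT, against 394, 187 and 242 CPM in EWAT and 187, 251 and 104 CPM in RWAT. Msr1 had a log2 fold change of -2.72 ± 0.39 (SE, edgeR adjusted p = 0.0157). None of these groups overlapped.

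Among the 12 leading genes lower in IWAT were Arg1, Trem1, Olr1 and Alox15, while Cd209d, given above, was called higher. Arg1, arginase, had 6.27, 10.4 and 30.5 CPM in IWAT, against 3111, 617 and 829 CPM in EWAT and 332, 454 and 238 CPM in RWAT. Arg1 had a log2 fold change of -5.52 ± 1.02 (SE, edgeR adjusted p = 0.0189), with the groups apart and IWAT lower. For Arg1 the fold change was -6.44 without IWAT 3. Trem1, a receptor that amplifies myeloid activation, had 0.196, 0.49 and 0.999 CPM in IWAT, against 40.1, 18.6 and 4.83 CPM in EWAT and 3.96, 8.08 and 1.66 CPM in RWAT. Trem1 had a log2 fold change of -4.11 ± 0.8 (SE, edgeR adjusted p = 0.0205), not called by limma-voom, and the highest IWAT library was below the lowest visceral one. For Trem1 the fold change was -4.78 without IWAT 3. Olr1, a receptor for oxidised lipoprotein, had 0.523, 0.802 and 1.88 CPM in IWAT, against 59.6, 31.4 and 16.7 CPM in EWAT and 3.86, 11.6 and 9.08 CPM in RWAT. Olr1 had a log2 fold change of -4 ± 0.76 (SE, edgeR adjusted p = 0.0201), with every IWAT library below all 6 visceral ones. For Olr1 the fold change was -4.66 without IWAT 3. Alox15, a lipoxygenase of peritoneal macrophages, had 0.131, 0.579 and 0.412 CPM in IWAT, against 60.6, 8.5 and 4.39 CPM in EWAT and 1.4, 5.86 and 0.984 CPM in RWAT, with EWAT 1 far above the rest. Alox15 had a log2 fold change of -4.4 ± 1.11 (SE, edgeR adjusted p = 0.0355), not called by limma-voom. For Alox15 the fold change was -3.44 without EWAT 1 and -3.8 without RWAT 2.

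Ddit4l, an inhibitor of mTOR signalling, had 0.261, 0.267 and 0.412 CPM in IWAT, against 7.61, 11.2 and 8.35 CPM in EWAT and 3.14, 10.2 and 18 CPM in RWAT. Ddit4l had a log2 fold change of -4.93 ± 0.66 (SE, edgeR adjusted p = 0.0145), and no visceral library was as low as IWAT. It stood at -4.83 against EWAT and -5.03 against RWAT. Slpi, Col24a1, Ankrd1 and Cxcl5 were lower, called with log2 fold changes of -4.32, -4.34, -4.72 and -4.35, none of them called by limma-voom. Their fold changes were -4.99 without IWAT 1 for Slpi, -3.27 without RWAT 2 for Col24a1, -5.5 without IWAT 3 and -4.13 without RWAT 2 for Ankrd1 and -6.86 without IWAT 2 and -3.6 without RWAT 2 for Cxcl5. Without IWAT 2, Cxcl5 was left at 0 and 0.118 CPM in IWAT, below the level read as detectable. Actn3, a fast muscle protein, ranked second of the 12 by fold change behind Krt8, with 0.261, 0.0891 and 0.118 CPM in IWAT, against 0.809, 0.684 and 0.586 CPM in EWAT and 40.4, 1.27 and 198 CPM in RWAT. Actn3 had a log2 fold change of -5.59 ± 1.56 (SE, edgeR adjusted p = 0.0447), not called by limma-voom, with the groups apart and IWAT lower. For Actn3 the fold change was -4.61 without RWAT 3. Its level in RWAT 1 and RWAT 3 moved with the other skeletal muscle genes there, of which 17 were tested: DESeq2 called 8 lower, limma-voom 0 lower.

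Promoters of genes called lower and higher were read for short motifs. The 300 bases from 250 before to 50 after the start of each gene were taken from RefSeq (GRCm38.p6), which held a promoter for 648 of the 878 genes called lower, 927 of the 1224 called higher and 12113 of all tested. The motif GAGGAAGT, the form of the ETS site that the myeloid factor PU.1 binds, stood on either strand in 69 promoters of genes called lower (10.6%), against 20 of those called higher (2.16%) and 468 of all tested (3.86%). Its shorter core AGGAAGT, which every GAGGAAGT contains, stood in 25% of promoters of genes called lower, 6.8% of those called higher and 10.9% of all tested. Genes for printing were picked by hand among those given above whose promoters carry GAGGAAGT. Which other named genes carry it is not reported here. The promoters are printed 5′ to 3′ on the strand of the gene, with GAGGAAGT in capitals: Spp1 (chr5:104434861-104435160, plus strand), Cd300ld (chr11:114989837-114990136, minus strand) and Bcl2a1b (chr9:89199023-89199322, plus strand).
Spp1: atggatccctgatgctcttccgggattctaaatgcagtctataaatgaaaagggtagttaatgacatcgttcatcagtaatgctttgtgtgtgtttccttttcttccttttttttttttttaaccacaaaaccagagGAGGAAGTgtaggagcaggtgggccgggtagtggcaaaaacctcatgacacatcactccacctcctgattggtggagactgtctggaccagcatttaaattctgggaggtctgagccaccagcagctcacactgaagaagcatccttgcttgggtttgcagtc
Cd300ld: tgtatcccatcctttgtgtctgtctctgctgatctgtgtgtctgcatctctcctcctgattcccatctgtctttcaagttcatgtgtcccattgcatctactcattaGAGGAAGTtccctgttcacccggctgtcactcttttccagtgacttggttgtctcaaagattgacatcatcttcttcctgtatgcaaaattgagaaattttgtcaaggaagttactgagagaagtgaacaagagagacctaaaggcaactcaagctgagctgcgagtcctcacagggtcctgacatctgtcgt
Bcl2a1b: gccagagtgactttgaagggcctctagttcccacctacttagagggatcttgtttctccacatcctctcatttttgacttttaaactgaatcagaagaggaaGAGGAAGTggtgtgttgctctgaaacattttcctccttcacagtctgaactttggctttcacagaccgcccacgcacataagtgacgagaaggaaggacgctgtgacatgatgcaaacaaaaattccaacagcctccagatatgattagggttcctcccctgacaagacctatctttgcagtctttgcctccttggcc
The motif starts 113, 143 and 148 bases before the gene start in Spp1, Cd300ld and Bcl2a1b. It was chosen after the values were seen, a match is a description of letters and not a bound site, and no test was made.

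The other 10 motifs were searched on both strands. CCAAT stood in 39.5% of promoters of genes called lower, 41.1% of those called higher and 42.4% of all tested, CACGTG in 11.6%, 8.41% and 11.1%, and TATAAA in 14.7%, 9.92% and 9.6%. The sterol motif TCACNCCAC stood in 1.54%, 1.62% and 1.4%, TGTTTAC in 3.09%, 3.45% and 3.25%, TTCCNGGAA in 1.23%, 1.51% and 1.54%, and CAAGGACA in 1.7%, 1.19% and 1.44%. TTGCGCAA stood in 0.154%, 0.108% and 0.338%. The nuclear receptor repeat DR1 stood in 0 promoters of called genes, in 13 of all tested in a shortened form and in 7 in full.

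Of 21 tested chemokine genes 7 were called lower and 0 higher, and 14 had a negative and 7 a positive fold change, with a median of -0.6. Ccl7, which draws monocytes, had 6.66, 22 and 20.6 CPM in IWAT, against 69, 56.6 and 75.1 CPM in EWAT and 100.1, 136 and 59.8 CPM in RWAT, with no overlap. Ccl7 had a log2 fold change of -2.3 ± 0.45 (SE, edgeR adjusted p = 0.0207). Cxcl16, a ligand for T cells and a scavenger receptor, had 14.2, 8.96 and 15.2 CPM in IWAT, against 67.1, 65.4 and 69.2 CPM in EWAT and 26.6, 42.8 and 14.7 CPM in RWAT, with RWAT 3 inside the IWAT range. Cxcl16 had a log2 fold change of -1.77 ± 0.34 (SE, edgeR adjusted p = 0.0201). Ccl2, the main monocyte attractant, had 7.71, 39.6 and 50.5 CPM in IWAT, against 104, 74 and 138 CPM in EWAT and 187, 248 and 81.3 CPM in RWAT. Ccl2 had a log2 fold change of -2.05 ± 0.58 (SE, edgeR adjusted p = 0.0468), and the highest IWAT library was below the lowest visceral one. Ccl9, Ccl4, Cxcl2 and Ccl6 were the other four, called with log2 fold changes of -1.64, -2.95, -3.28 and -1.35. Ccl4 was at -3.74 without IWAT 3. The count of 7 was 0 without IWAT 1 or IWAT 2, 2 without EWAT 3 or RWAT 2, 3 without RWAT 1 and 4 without EWAT 1. DESeq2 called 2 higher and 9 lower, limma-voom 1 higher and 7 lower.

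Cell cycle genes had a negative fold change in all 16 members tested, with a median of -1.55, but 3 were called. Of all genes tested 4.64% were called lower. In 12 of the 16, all 3 IWAT libraries lay below all 6 visceral ones, against 7.83% of all genes tested. Pcna, the DNA polymerase clamp, had 56.4, 54.9 and 91.1 CPM in IWAT, against 134, 149.9 and 317 CPM in EWAT and 187, 186 and 131 CPM in RWAT. Pcna had a log2 fold change of -1.44 ± 0.34 (SE, edgeR adjusted p = 0.0312), with every IWAT library below all 6 visceral ones. Top2a, the topoisomerase of dividing cells, had 21, 69.9 and 101 CPM in IWAT, against 189, 132 and 275 CPM in EWAT and 168, 263 and 101 CPM in RWAT, lowest in IWAT 1 and not called. Top2a had a log2 fold change of -1.55 ± 0.51 (SE, edgeR adjusted p = 0.0673). Tyms and Bub1 were called with log2 fold changes of -1.07 and -1.91. DESeq2 called 14 lower, limma-voom 8 lower. The count of 3 was 0 without EWAT 3, IWAT 1, IWAT 2, RWAT 1 or RWAT 2, 1 without BAT 1 or EWAT 1, 5 without BAT 3 and 7 without BAT 2, and the median stayed between -2.09 and -1.12 when any 1 white library was left out.

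**Figure D5:**
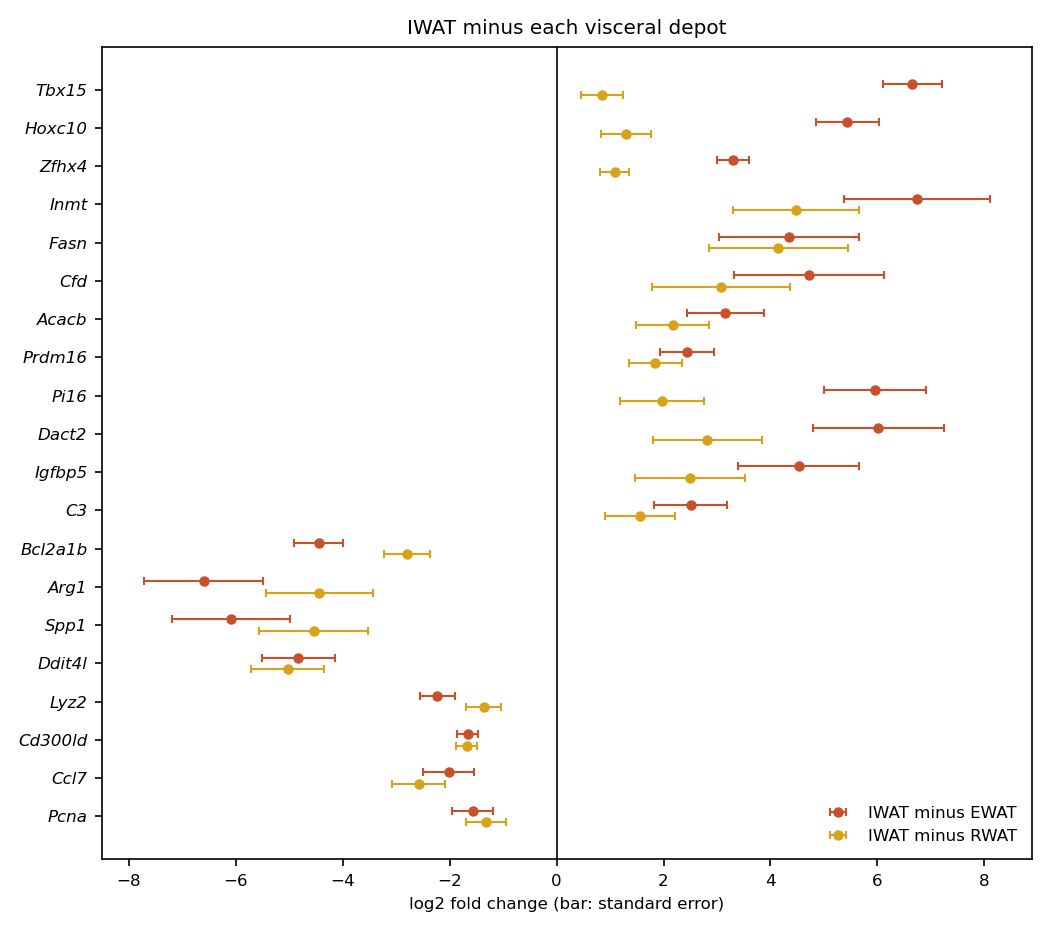
Log2 fold change of IWAT minus EWAT and IWAT minus RWAT (horizontal axis) for 20 genes named in the text, with bars of 1 standard error. Points to the right of 0 are higher in IWAT. Tbx15 stood at 6.65 against EWAT and 0.85 against RWAT, whereas Fasn and Ddit4l stood at nearly the same value against both.

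Of 32 tested Wnt genes 9 were called higher and 1 lower, with a median of 0.81. Among the ligands, Wnt10b, which restrains adipocyte differentiation, had 8.95, 15.2 and 2.18 CPM in IWAT, against 0.428, 0.513 and 0.195 CPM in EWAT and 3.24, 0.454 and 3.78 CPM in RWAT, with RWAT 1 and RWAT 3 above IWAT 3. Wnt10b had a log2 fold change of 3.18 ± 0.66 (SE, edgeR adjusted p = 0.0235). For Wnt10b the fold change was 2.51 without IWAT 2. Wnt4, the one called lower, had 0.914, 4.32 and 2.65 CPM in IWAT, against 12.6, 21.5 and 10.8 CPM in EWAT and 3.43, 8.36 and 5.07 CPM in RWAT, with RWAT 1 inside the IWAT range. Wnt4 had a log2 fold change of -1.79 ± 0.46 (SE, edgeR adjusted p = 0.0373). Among the receptors, Lrp5 had 86.8, 76 and 94 CPM in IWAT, against 51.7, 48.1 and 44.5 CPM in EWAT and 52.3, 47.6 and 51.5 CPM in RWAT, a small difference with no overlap. Lrp5 had a log2 fold change of 0.8 ± 0.14 (SE, edgeR adjusted p = 0.0164). Axin2, a target of the canonical pathway, had 31.1, 15.4 and 12.1 CPM in IWAT, against 2.76, 6.27 and 3.66 CPM in EWAT and 3.33, 2.04 and 6.89 CPM in RWAT, with no overlap. Axin2 had a log2 fold change of 2.24 ± 0.5 (SE, edgeR adjusted p = 0.027). The higher count was 0 without IWAT 1 or IWAT 2, 1 without EWAT 3, 2 without RWAT 2 and 4 without RWAT 1, and the lower one 0 without EWAT 1, EWAT 3, IWAT 1, IWAT 2, IWAT 3, RWAT 1 or RWAT 2 and 2 without BAT 2.

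Of 34 genes of BMP and TGF-beta signalling, 7 were called higher and 3 lower, with a median of 0.24. Tgfbr3, the co-receptor betaglycan, had 236, 327 and 187 CPM in IWAT, against 42.7, 62.2 and 40.5 CPM in EWAT and 119.7, 69.2 and 98.7 CPM in RWAT, with no overlap. Tgfbr3 had a log2 fold change of 1.88 ± 0.24 (SE, edgeR adjusted p = 0.0114). The ligand Bmp7, which promotes brown adipocyte differentiation, had 11.8, 7.93 and 1.35 CPM in IWAT, against 0.238, 0.228 and 0 CPM in EWAT and 1.26, 0.0908 and 1.97 CPM in RWAT. Bmp7 had a log2 fold change of 4.08 ± 0.85 (SE, edgeR adjusted p = 0.0235), with RWAT 3 above the lowest IWAT library. For Bmp7 the fold change was 3.48 without IWAT 1. Inhba, which encodes the activin A subunit, was lower in IWAT, with 0.131, 0.624 and 0.823 CPM in IWAT, against 37.6, 9.64 and 5.12 CPM in EWAT and 2.12, 3.18 and 1.59 CPM in RWAT. Inhba had a log2 fold change of -3.56 ± 1.01 (SE, edgeR adjusted p = 0.0464), and no visceral library was as low as IWAT. The higher count was 0 without IWAT 1 or IWAT 2, 1 without EWAT 3, 2 without RWAT 2 and 3 without RWAT 1, and the lower one 0 without EWAT 1, EWAT 3, IWAT 1, IWAT 2, RWAT 1 or RWAT 2 and 1 without IWAT 3.

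In the insulin-like growth factor system, 5 of 15 tested genes were called higher and 2 lower. Igfbp5, a binding protein, had 710.4, 1567 and 412 CPM in IWAT, against 2.43, 66.2 and 47.7 CPM in EWAT and 206, 42 and 226 CPM in RWAT. Igfbp5 had a log2 fold change of 3.52 ± 0.83 (SE, edgeR adjusted p = 0.0307), with the groups apart and IWAT higher. For Igfbp5 the fold change was 2.84 without IWAT 2. Insr, the insulin receptor, had 163, 219.9 and 194 CPM in IWAT, against 50.9, 79.7 and 57.7 CPM in EWAT and 100.4, 68.6 and 104 CPM in RWAT, with no overlap. Insr had a log2 fold change of 1.35 ± 0.29 (SE, edgeR adjusted p = 0.0241). Irs1, its main substrate, had 103, 143 and 129.7 CPM in IWAT, against 16.3, 39.8 and 19 CPM in EWAT and 55.1, 26.7 and 65 CPM in RWAT. Irs1 had a log2 fold change of 1.84 ± 0.39 (SE, edgeR adjusted p = 0.0243), and the lowest IWAT library was above the highest visceral one. H19, the imprinted non-coding RNA beside Igf2, was lower in IWAT, with 4.44, 12.7 and 11.5 CPM in IWAT, against 42.5, 30.2 and 31.3 CPM in EWAT and 56.5, 42.6 and 53.5 CPM in RWAT. H19 had a log2 fold change of -2.13 ± 0.46 (SE, edgeR adjusted p = 0.0253), with the groups apart and IWAT lower. The higher count was 0 without IWAT 1 or IWAT 2, 1 without EWAT 3 or RWAT 2 and 3 without RWAT 1, and the lower one 0 without EWAT 3, IWAT 1, IWAT 2 or RWAT 2 and 1 without BAT 1, EWAT 1, EWAT 2, IWAT 3 or RWAT 1.

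Of 13 genes of steroid action 6 were called higher and 0 lower, with a median of 0.74, against 6.46% and 4.64% of all genes tested. Hsd11b1, which regenerates active glucocorticoid, had 102, 72.9 and 44.4 CPM in IWAT, against 8.32, 22.3 and 10.7 CPM in EWAT and 21.3, 7.22 and 10.4 CPM in RWAT. Hsd11b1 had a log2 fold change of 2.45 ± 0.56 (SE, edgeR adjusted p = 0.0286), with every IWAT library above all 6 visceral ones. Akr1c18, a hydroxysteroid dehydrogenase of a family of close relatives, had 22.1, 17.4 and 4.17 CPM in IWAT, against 0, 0.285 and 0 CPM in EWAT and 5.84, 0.772 and 3.71 CPM in RWAT. Akr1c18 had a log2 fold change of 4.68 ± 0.82 (SE, edgeR adjusted p = 0.0169), with RWAT 1 above the lowest IWAT library. For Akr1c18 the fold change was 6.6 without EWAT 2, but EWAT gave only 5 counts in all. Both EWAT libraries left were at 0, so 6.6 is a value of the model and not a measured ratio. Nr3c2, Akr1c14 and Nr3c1 were also called, with log2 fold changes of 1.68, 1.46 and 0.74. Among 17 retinoid genes 3 were called higher and 1 lower, against 11.1% called over all genes tested. Rxra, a retinoid receptor, had 208, 152 and 153 CPM in IWAT, against 81, 81 and 83.2 CPM in EWAT and 112, 66.3 and 94.7 CPM in RWAT. Rxra had a log2 fold change of 0.99 ± 0.21 (SE, edgeR adjusted p = 0.025), and no visceral library reached IWAT. The steroid count was 0 without IWAT 1 or IWAT 2, 1 without RWAT 2, 2 without EWAT 3 and 3 without EWAT 1, and the retinoid counts were 0 without EWAT 3, IWAT 1, IWAT 2 or RWAT 2 and 1 without BAT 1, EWAT 1, IWAT 3 or RWAT 1 for those higher and 0 without EWAT 1, EWAT 3, IWAT 1, IWAT 2 or RWAT 2 for the one lower. Among retinoid genes DESeq2 called 5 higher and 1 lower, limma-voom 2 higher and 1 lower.

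Of 14 blood endothelial genes 2 were called higher, Tek and Cldn5, with Cldn5 not called with upper-quartile scaling or by limma-voom. Over all genes tested 6.46% were called higher, and whether 2 of 14 differs from that share was not tested. Tek, the angiopoietin receptor, had 75.5, 87.1 and 58.8 CPM in IWAT, against 18.1, 17.1 and 12.5 CPM in EWAT and 35.4, 23.8 and 27.3 CPM in RWAT, with no overlap, while Pecam1, which marks endothelium as a whole, had 58.5, 141 and 181 CPM in IWAT, against 227, 70.2 and 78.2 CPM in EWAT and 83.4, 141 and 102 CPM in RWAT. Tek had a log2 fold change of 1.78 ± 0.21 (SE, edgeR adjusted p = 0.00875). Pecam1 had a log2 fold change of 0.12 ± 0.42 (SE, edgeR adjusted p = 0.884). Of 8 lymphatic genes Reln and Lyve1 were called higher and Pdpn lower, with Lyve1 not called with upper-quartile scaling. Reln, a secreted guidance protein, had 13.2, 11.9 and 5.47 CPM in IWAT, against 0.381, 0.798 and 0.39 CPM in EWAT and 3.57, 1.27 and 1.66 CPM in RWAT, while Prox1, the factor that defines lymphatic endothelium, had 1.31, 1.02 and 0.176 CPM in IWAT, against 0.0951, 0.228 and 0.244 CPM in EWAT and 0.531, 0.545 and 0.984 CPM in RWAT and was not called. Reln had a log2 fold change of 3.25 ± 0.45 (SE, edgeR adjusted p = 0.0145), with the groups apart and IWAT higher. Prox1 had a log2 fold change of 1.21 ± 0.57 (SE, edgeR adjusted p = 0.176), with EWAT 2, EWAT 3, RWAT 1, RWAT 2 and RWAT 3 above the lowest IWAT library. Of 12 mural genes Abcc9 and Cspg4 were called higher and Des lower, while DESeq2 called 4 higher and 4 lower, limma-voom 2 higher and 2 lower. The counts were 0 without IWAT 1 or IWAT 2 and 1 without BAT 1, BAT 2, EWAT 2, EWAT 3, IWAT 3, RWAT 1, RWAT 2 or RWAT 3 for blood vessels, 0 without IWAT 1 or IWAT 2 and 1 without EWAT 1, EWAT 3, RWAT 1 or RWAT 2 for lymphatic genes higher, 0 without EWAT 1, EWAT 3, IWAT 1, IWAT 2, IWAT 3, RWAT 1, RWAT 2 or RWAT 3 for Pdpn, 0 without IWAT 1 or IWAT 2 and 1 without EWAT 3, IWAT 3, RWAT 1 or RWAT 2 for mural genes higher and 0 without IWAT 1 or IWAT 2 and 2 without BAT 2 or BAT 3 for Des.

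Of 10 Schwann cell genes 3 were called higher and 0 lower, with a median of 1.38, against 6.46% and 4.64% of all genes tested. Sox10, the factor that defines the lineage, had 0.784, 2.32 and 1.18 CPM in IWAT, against 0, 0.114 and 0.0976 CPM in EWAT and 0.338, 0.227 and 0.227 CPM in RWAT. Sox10 had a log2 fold change of 3.33 ± 0.64 (SE, edgeR adjusted p = 0.0205), and the lowest IWAT library was above the highest visceral one. Cdh19, a cadherin of that lineage, had 2.74, 12.4 and 2.7 CPM in IWAT, against 0, 0.114 and 0.0976 CPM in EWAT and 1.69, 0.318 and 0.832 CPM in RWAT. Cdh19 had a log2 fold change of 4.48 ± 0.88 (SE, edgeR adjusted p = 0.0214). For Cdh19 the fold change was 3.35 without IWAT 2. No library of the other depots reached IWAT for either gene. No gene of 5 tested from sympathetic neurons was called by edgeR (DESeq2 called 2 lower, limma-voom 1 lower). At an unadjusted edgeR p below 0.05 there were 3 of the 5, against 30.8% of all genes tested. All depots had been denervated and no intact fat was set beside them, so these values cannot show an effect of denervation. Th, which encodes the enzyme that makes catecholamines, was at 0 in all 3 IWAT libraries, against 0, 0.057 and 0 CPM in EWAT and 0, 0 and 0 CPM in RWAT. The Schwann cell count of 3 was 0 without IWAT 1, IWAT 2 or RWAT 2, 1 without EWAT 3 and 5 without BAT 1.

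Of 16 B cell genes Cd37 alone was called, lower with a log2 fold change of -0.97 (not called in the 9 white libraries alone), and of 17 T and natural killer cell genes 0. Over all genes tested the share called was 11.1%. Ighm, the heavy chain of IgM, had 1141, 42.6 and 106 CPM in IWAT, against 14.4, 58.7 and 131 CPM in EWAT and 72.4, 36.3 and 68.5 CPM in RWAT, high in IWAT 1 alone and not called. Ighm had a log2 fold change of 2.76 ± 0.99 (SE, edgeR adjusted p = 0.0877), with EWAT 2, EWAT 3, RWAT 1 and RWAT 3 above the lowest IWAT library. For Ighm the fold change was 0.23 without IWAT 1. Ccl21a, a chemokine of lymph node stroma with near-identical copies, had 18, 0.267 and 0.647 CPM in IWAT, against 0, 0.171 and 0.0976 CPM in EWAT and 3.62, 0 and 0.984 CPM in RWAT. Ccl21a had a log2 fold change of 4.05 ± 1.43 (SE, edgeR adjusted p = 0.0834), with RWAT 1 and RWAT 3 above the lowest IWAT library. For Ccl21a the fold change was 0.26 without IWAT 1 and 4.93 without RWAT 1. Of 6 tested lymph node genes Enpp2 alone, which adipocytes also make, was called, with a log2 fold change of 1.8 (not called by limma-voom), and Glycam1, which defines node vessels, was at or below 0.223 CPM throughout. Their part in the lymphocyte values was not tested. The Cd37 count was 0 without BAT 1, EWAT 1, EWAT 3, IWAT 1, IWAT 2, RWAT 1 or RWAT 2 and 2 without IWAT 3 or RWAT 3, and the Enpp2 count 0 without BAT 1, EWAT 2, EWAT 3, IWAT 1, IWAT 2, IWAT 3, RWAT 1, RWAT 2 or RWAT 3. Among B cell genes DESeq2 called 2 higher and 2 lower, limma-voom 0 higher and 2 lower.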

How the data were processed

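Each of 12 libraries, 3 per depot, was made from total RNA without its ribosomal part and read single-end over 75 bp, per the labels' protocols. Per the submitters' processing notes, the authors used Trimmomatic 0.36, RSEM 1.3.0, DESeq2 1.10.1 and GRCm38.p4. For the aligner and the annotation release, the sources used here give no name. The deposited tables hold RSEM expected counts for 47729 genes, not normalized between libraries, which were rounded to whole numbers. Of the gene IDs, 47310 were found in GENCODE M21 (GRCm38), the source of positions.

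Genes were filtered by filterByExpr (minimum count 10) of edgeR 4.0.16 in R 4.3.3, which left 18942, and scaled by TMM. One quasi-likelihood model with a coefficient per depot was fitted over all 12 libraries (biological coefficient of variation 0.385), and p-values were two-sided with Benjamini-Hochberg adjustment at 0.05. List levels are mean log2 CPM with a prior count of 2. The scripts were tested on simulated data. No 2 libraries held identical values.

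Genes named were the 12 per direction with the largest fold change among those called without overlap and at or above 5 CPM, up to 4 members per list by p, 16 depot markers. Any other gene named was chosen after its values were seen, for its role or its small p. The 37 lists, which matched 665 of 667 memberships, and the depots compared were chosen with earlier results of these data known. Counting intervals cover counting error only, at 95%. Alternatives were other scalings, filters and tests (DESeq2 1.42.0, limma-voom 3.58.1), fewer libraries, a replicate block and an adipocyte covariate. Some members counted in the lists are not reported here by name.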

Additional observations from a re-analysis of the deposited data

Results flagged for a closer look

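Tbx15 was the one named gene whose 2 steps, from IWAT to EWAT and from IWAT to RWAT, differed by a test of the difference itself. It was 5.80 higher in RWAT than in EWAT on the log2 scale (edgeR adjusted p = 0.00562, over 18942 genes), with all 3 RWAT libraries at or above 4.81 CPM and all 3 EWAT libraries at or below 0.285 CPM. EWAT gave 12 counts in all. This call was lost without EWAT 1, without EWAT 2 or without EWAT 3, by limma-voom and with only those depots fitted. Groups of 3 libraries were not searched for single outlying values.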

How the results depend on the processing

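The count of 2102 genes in IWAT against the visceral mean stayed within 1.5 times under RLE and upper-quartile scaling, no filter on low counts, a 1 CPM filter, limma-voom, the 9 white libraries alone and the 6 visceral libraries as 1 group. It was 3970 with DESeq2, 235 without RWAT 1 and RWAT 3, 0 with the adipocyte level as a covariate and 8 without EWAT 1 and RWAT 2; leaving out 1 library gave 0 (without IWAT 1) to 2611 (without BAT 2). IWAT against EWAT gave 1710 genes, 3780 with DESeq2, 759 without RWAT 1 and RWAT 3, 0 with the covariate and 169 without EWAT 1 and RWAT 2; leaving out 1 library gave 16 to 2397. IWAT against RWAT gave 0, 5 with no filter, 1160 with DESeq2, 2 with only those depots fitted, and 0 to 2 with 1 library left out. RWAT against EWAT gave 1, 2 under RLE, 4 with no filter, 130 with DESeq2, 0 by limma-voom, 0 with only those depots fitted, and 0 to 2 with 1 library left out. The covariate and the removal of EWAT 1 with RWAT 2 were added after the data were seen. The cause of these shifts was not tested. The replicate block gave 843 genes against the visceral mean and 639 against EWAT. Pairing correlations of same-numbered libraries were -0.35, 0.12 and 0.00 for IWAT with EWAT, 0.29, 0.12 and -0.14 for IWAT with RWAT, and -0.25, -0.34 and -0.29 for EWAT with RWAT. With BAT they were 0.36, 0.15 and -0.11 for IWAT, -0.2, -0.36 and -0.05 for EWAT, and 0.18, 0.43 and 0.2 for RWAT. No pair of white depots had all 3 above 0.1, so the numbers were not read as pairs. Among uncalled genes, the covariate turned the fold change of Lep to -1.17, Adipoq to -0.53, Ighm to -0.44 and Ccl21a to -2.28. Sfrp2 was -0.14 without RWAT 1 and RWAT 3 and ranged from -0.18 to 0.35 with 1 library left out. With the 6 visceral libraries as 1 group, the calls of Tbx15, Zfhx4, Shox2, Hoxc10, Hoxa10 and Hoxa9 were lost. Those of Apod, Islr2, Cd209d, Pi16, Dpp4 and Mmp3 were lost too, among others. Depth limits genes near 3 counts, as in Tcf21 and Wt1 in IWAT. DESeq2 gave Fasn and Ucp1 no adjusted p.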

Other observations

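Interferon response genes gave 0 calls among 19 tested, with 0 at an unadjusted edgeR p below 0.05 and a median log2 fold change of 0.1. Ifit1 had 19.9, 31.2 and 8.47 CPM in IWAT, against 8.7, 5.59 and 14.9 CPM in EWAT and 54.6, 21.6 and 18.2 CPM in RWAT, with RWAT 1 highest of all 9 libraries. Ifit1 had a log2 fold change of 0.18 ± 0.6 (SE, edgeR adjusted p = 0.874). Genes of neighbouring organs gave no edgeR call either: 0 of 7 for skin and mammary epithelium, 0 of 4 for kidney and adrenal and 0 of 1 for epididymis and testis. At an unadjusted edgeR p below 0.05 there were 4 of the 7, 2 of the 4 and 0 of the 1. DESeq2 called 1 higher and 3 lower of the 7, and 1 higher and 1 lower of the 4. With 11.1% of all genes called, 0 calls in lists this short do not show that such tissue was absent. Krt5, a keratin of skin, had 0, 0 and 0 CPM in IWAT, against 0, 0.057 and 0 CPM in EWAT and 0, 0 and 0 CPM in RWAT. Umod, which defines kidney tubule, and Lcn5 and Lcn8, secreted by the epididymis, were at 0 in all 9 libraries. Of 17 skeletal muscle genes Actn3 alone was called, and Ttn, titin, had 9.14, 6.42 and 3.88 CPM in IWAT, against 4.99, 6.27 and 2.83 CPM in EWAT and 335, 36.7 and 2376 CPM in RWAT, high in RWAT 1 and RWAT 3. Ttn had a log2 fold change of -3.34 ± 1.25 (SE, edgeR adjusted p = 0.0975), with EWAT 1, EWAT 2 and EWAT 3 below the highest IWAT library. The muscle median was 0.57 against EWAT and -6.92 against RWAT.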
